A study of Homo sapiens with 38 samples.

Results

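MIR7977 is a short human microRNA gene on chromosome 3, listed in the count table as ENSG00000283333.1 with the RNA type miRNA. It was 1 of 90127 features in the table and 1 of 3346 typed as miRNA. It was chosen by its counts in the cell libraries, which were higher in rPAL RNA than in total RNA while nearly all other miRNA entries were lower there, so its values in the cell libraries are given as a description, with no test.

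Small RNA was sequenced in 38 libraries of the acute myeloid leukaemia lines HL60, a promyelocytic line, and KG1a, a primitive CD34-positive line, both labelled wild type. Each line gave small extracellular vesicles (sEV), large extracellular vesicles (lEV) and cells, and each of these sources gave rPAL RNA and total RNA, in 3 libraries per group and 4 in each of the 2 groups of KG1a cells. In rPAL, periodate oxidises sialic acid and an aldehyde-reactive biotin is ligated to it, so that RNA carrying sialylated glycans can be pulled down. Total RNA is the input of that pull-down. Cells grew with 10% fetal bovine serum, whereas vesicles were collected from cells kept 2 days without it, so vesicle and cell RNA differed in culture as well as in source. Each line is 1 established culture line, and the labels do not tell whether replicates are separate cultures, so a p-value reflects the spread among the sequenced libraries alone. Library totals were 2380745 to 15532758 counts in rPAL RNA and 5498168 to 14892937 counts in total RNA. Among the listed marker mRNAs of the lines, CD34 and MPO differed in mean between them, at low levels. CD34 averaged 0.0704 CPM (counts scaled to a library total of 1000000) in HL60 cell total RNA and 2.95 CPM in KG1a cell total RNA. MPO, the granule enzyme myeloperoxidase, averaged 2.49 CPM in HL60 cell total RNA and 0.0181 CPM in KG1a cell total RNA. The other promyelocytic markers listed, ELANE, AZU1 and PRTN3, are not shown here. The 6 listed mRNAs of red cells and plasma summed to between 0 and 1.93 CPM over the libraries.

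A microRNA is cut from a hairpin transcript and guides Argonaute proteins to messenger RNAs, mainly through the seed at its 5′ end. miR-7977 has been described in vesicles of acute myeloid leukaemia and myelodysplastic cells, which pass it to marrow stromal cells, where it lowers the RNA-binding protein PCBP1. Glycans on small RNAs have been described on the cell surface, with tRNAs among the RNAs that carry them.

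The RefSeq records (GRCh38.p14) place mature miR-7977 at chr3:176515103-176515120 and its hairpin at chr3:176515103-176515151, both on the plus strand. They are shown because the counts are per gene and do not separate the mature form from its hairpin. The seed (bases 2 to 8) is in capitals in the first line, and the mature bases in the second.
hsa-miR-7977: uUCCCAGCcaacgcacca
MIR7977 hairpin: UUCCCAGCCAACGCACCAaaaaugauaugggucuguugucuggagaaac

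The mature form is 18 bases long, against a median of 22 bases over the 2370 mature human miRNAs of RefSeq, of which 130 (5.49%) are 18 bases or shorter. None of the other mature miRNAs shares its seed. The hairpin is 49 bases long, against a median of 80 bases, and 9 of 1560 hairpins are 49 bases or shorter. The mature bases are the first 18 of the hairpin, so the record leaves no 5′ flank before the cut. RNAfold gave the hairpin a minimum free energy of −15.0 kcal/mol, which is −0.31 kcal/mol per base against a median of −0.45 kcal/mol per base, and 151 of the 1560 hairpins (9.68%) fold more weakly per base.

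The mature form ends in the letters CACCA, which 6 of the 2370 mature miRNAs do (0.253%), and 45 (1.90%) end in CCA. Mature tRNAs also end in CCA, which is added after transcription. Of the 6 miRNAs, 4 are printed, since MIR7975, MIR4454 and MIR1260A are reported elsewhere to overlap another small RNA in sequence. The last 5 bases are in capitals. They lie at chr3:176515103-176515120 on the plus strand, chr19:55123225-55123242 on the minus strand, chr4:163093607-163093626 on the minus strand and chr14:77266231-77266248 on the plus strand, in the order of the lines.
hsa-miR-7977: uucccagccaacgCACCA
hsa-miR-7975: auccuagucacggCACCA
hsa-miR-4454: ggauccgagucacggCACCA
hsa-miR-1260a: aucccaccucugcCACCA

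These genes were not counted alike. MIR7977 collected 343631 counts over all libraries, whereas of a list of 12 miRNA genes reported to overlap another small RNA, all in the table, 2 had a count, MIR4454 with 1 and MIR3651 with 1. Reads of the listed miRNAs may instead be counted under miRNA entries without a gene name, which was not analysed here. A search of 206694 GENCODE release 29 transcripts found the mature letters of miR-7977 in no gene but MIR7977. That release holds the mitochondrial tRNAs but no nuclear tRNA genes, and the search took exact matches only. How reads with several hits were counted is not given in the sources used here. Reads of another small RNA with the same or nearly the same letters therefore cannot be told apart from those of MIR7977. No feature of 3141 with at least 1000 counts stayed within 0.2 log2 of MIR7977 in every library, and the smallest of their largest gaps was 4.73 log2. So none had the same counts as MIR7977 throughout. Partly shared reads need not give equal counts, and libraries with 0 or 1 MIR7977 count give wide gaps easily. The comparison therefore does not tell whether reads are shared in part. The gene is intergenic in that annotation. Its nearest genes are the pseudogene AC117434.1, 400.566 kb upstream, and the long non-coding RNA gene LINC01208, 88.992 kb downstream, with 1 and 122 counts over all libraries. The nearest protein-coding genes are NAALADL2, 704.551 kb upstream, and TBL1XR1, 504.189 kb downstream.

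MIR7977 held 89.3% of all counts of the 1945 miRNA features with Ensembl identifiers, of which 425 had any count. The next, MIR1226, had 7610 counts, and MIR6842 had 4259. The other 1401 miRNA features carry RNAcentral identifiers without a gene name, and they held 97.1% of all miRNA counts. MIR7977 held 2.60% of all miRNA counts. Whether one of the RNAcentral entries stands for the same miRNA was not analysed here.

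MIR7977 was highest in rPAL RNA of cells, in both lines, and every library of these groups lay above every other library. In HL60 cells it had 1284, 2805 and 2235 CPM in rPAL RNA, against 42.5, 27.5 and 42.1 CPM in total RNA. In KG1a cells it had 2966, 4772, 3804 and 9798 CPM in rPAL RNA, against 62.5, 89.8, 95.5 and 78.7 CPM in total RNA. The lowest rPAL library lay 30.2-fold above the highest total library in HL60 cells and 31.1-fold above it in KG1a cells. Of the features tested, 28.5% in HL60 cells and 13.3% in KG1a cells were likewise higher in rPAL RNA with no overlap between groups. These are the values that chose the gene, so nothing is read from that separation.

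The group means were 2108 ± 768 CPM in rPAL RNA and 37.4 ± 8.53 CPM in total RNA of HL60 cells (SD, n = 3 each), a ratio of 56.4. They were 5335 ± 3066 CPM in rPAL RNA and 81.6 ± 14.5 CPM in total RNA of KG1a cells (SD, n = 4 each), a ratio of 65.4. After TMM scaling in edgeR the fitted log2 fold change of rPAL over total was 5.56 ± 0.36 (SE) in HL60 cells and 6.04 ± 0.73 (SE) in KG1a cells. The rPAL libraries of a group also varied more among themselves than the total libraries did, with coefficients of variation of 36.5% in rPAL and 22.8% in total RNA of HL60 cells, and 57.5% in rPAL and 17.8% in total RNA of KG1a cells. Replicate 4 of KG1a cell rPAL RNA was the highest library of the series, and the fitted KG1a value was 5.16 without it.

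**Figure D1:**
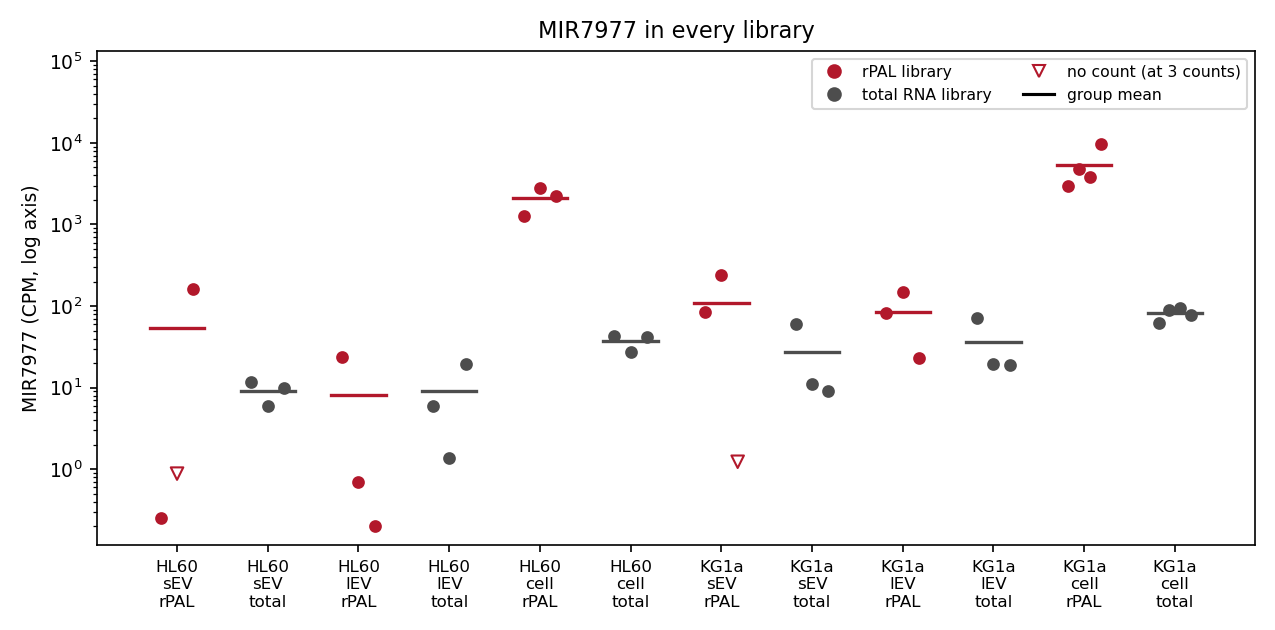
MIR7977 in each of the 38 libraries, in CPM on a log axis, by line, source and kind of RNA (red, rPAL; grey, total; bars, group means). Open triangles mark the 2 libraries with no count, drawn at the level of 3 counts. The rPAL libraries of cells, from 1284 CPM upwards, lie above all others, and the vesicle rPAL libraries spread over more than the range of the total libraries.

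In vesicles MIR7977 was low, and its rPAL libraries ran from no count to 241 CPM. HL60 sEV had 0.253, 0 and 164 CPM in rPAL RNA, against 11.8, 5.99 and 9.80 CPM in total RNA. HL60 lEV had 23.7, 0.694 and 0.201 CPM in rPAL RNA, against 6.04, 1.39 and 19.8 CPM in total RNA. One library therefore carried nearly all of the rPAL signal in each of these HL60 vesicle groups, and the rPAL and total libraries overlapped.

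KG1a sEV had 85.6, 241 and 0 CPM in rPAL RNA, against 61.0, 11.1 and 9.15 CPM in total RNA. KG1a lEV had 81.4, 147 and 23.0 CPM in rPAL RNA, against 71.9, 19.6 and 19.1 CPM in total RNA. Here 2 of 3 rPAL libraries of each source lay above every total library and the remaining one did not. In the libraries with a count of 0, a floor of 3 counts is 0.887 CPM in HL60 sEV rPAL replicate 2 and 1.24 CPM in KG1a sEV rPAL replicate 3. The upper limits of their 95% Clopper-Pearson intervals are 1.09 and 1.52 CPM, in the same order. The single count of HL60 lEV rPAL replicate 3 has a 95% Clopper-Pearson interval of 0.00509 to 1.12 CPM, so these libraries do not give the order of their levels. Intervals and floors cover counting error only.

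None of the 4 differences between rPAL and total RNA of vesicles passed the edgeR quasi-likelihood test (Benjamini-Hochberg adjusted p under 0.05). The log2 fold change was 2.24 in HL60 sEV (95% interval −2.74 to 7.21, adjusted p = 0.567) and −1.501 in HL60 lEV (−5.52 to 2.51, adjusted p = 0.585). It was 1.54 in KG1a sEV (−1.14 to 4.23, adjusted p = 0.586) and 1.18 in KG1a lEV (−1.07 to 3.43, adjusted p = 0.554). Of all features tested, 18.8% in HL60 sEV, 31.3% in HL60 lEV, 6.61% in KG1a sEV and 10.2% in KG1a lEV passed. Without rPAL replicate 1 the HL60 lEV value was −5.88 and passed (adjusted p = 0.0245), and without rPAL replicate 3 the HL60 sEV value was −6.56 and did not pass (adjusted p = 0.0633), so 1 library sets each of these values.

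The same contrast over all 24 vesicle libraries, as the mean over line and source of the difference in log2(CPM + 1), was −0.02 for rPAL minus total (exact permutation within line and source, two-sided p = 0.981, adjusted over 3 comparisons 0.981). Its sign was positive in 2 of the 4 strata, both of KG1a, and leaving out 1 library at a time turned it in 10 of 24 cases. By strata it was −0.74 in HL60 sEV, −0.93 in HL60 lEV, 0.49 in KG1a sEV and 1.09 in KG1a lEV.

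**Figure D2:**
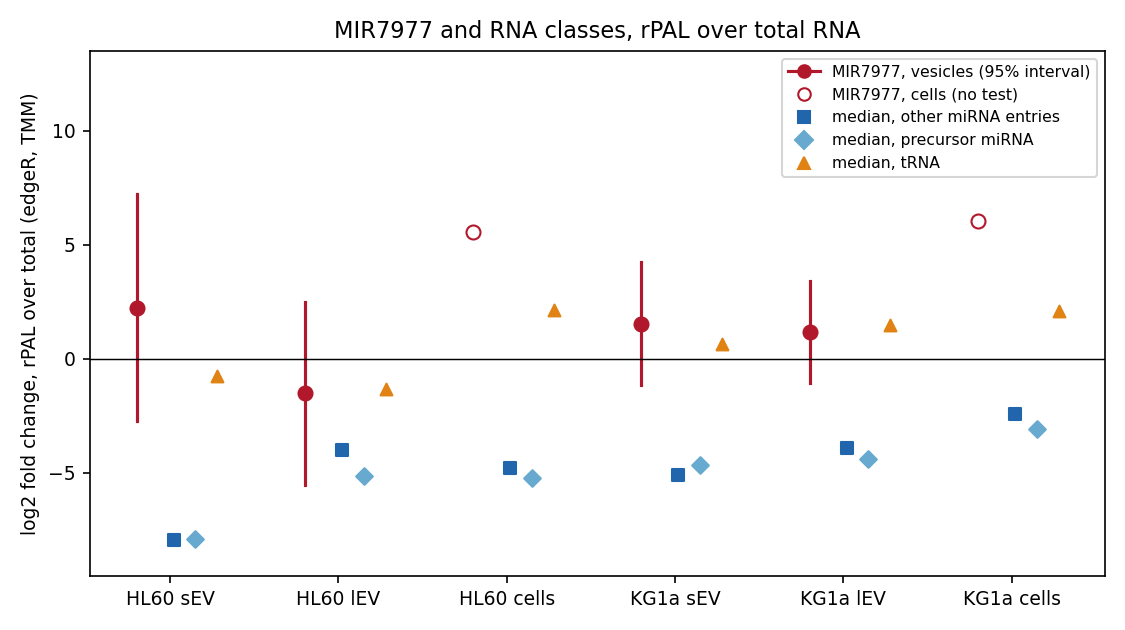
The log2 fold change of rPAL over total RNA of MIR7977 in 6 sources, fitted in edgeR after TMM scaling (filled circles with 95% intervals in vesicles; open circles, without a test, in cells). Squares, diamonds and triangles are medians over the other miRNA, the precursor miRNA and the tRNA entries tested. The 4 vesicle intervals include 0, and the miRNA medians lie below 0 in all 6 sources.

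Most of the other miRNA entries lay lower in rPAL RNA, which is part of the rule that chose MIR7977. Their calls in cells, and the place of MIR7977 among them there, restate that choice and are a description. Of the 206 other miRNA entries tested in HL60 cells, 10 were called higher and 163 lower in rPAL RNA, at a median of −4.79. Of all features tested in HL60 cells 38.6% were called, and 20.6% were called higher. Of the 300 tested in KG1a cells, 4 were called higher and 127 lower, at a median of −2.44. Of all features tested in KG1a cells 18.8% were called, and 8.89% were called higher. The median over all features was 0.04 in HL60 cells and −0.04 in KG1a cells.

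A larger fold change than that of MIR7977 was seen in 3 other miRNA entries in HL60 cells and in 1 in KG1a cells. The entry URS0000079F78 was among them in both lines, at 58.0 CPM in rPAL RNA and 0.302 CPM in total RNA of HL60 cells, and at 50.4 CPM in rPAL RNA and 0.548 CPM in total RNA of KG1a cells. Precursor miRNA entries had medians of −5.21 in HL60 cells and −3.09 in KG1a cells, and none exceeded MIR7977.

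Entries typed tRNA lay on the other side, with medians of 2.16 in HL60 cells and 2.08 in KG1a cells. Of 463 tRNA entries in HL60 cells 314 were called higher and 17 lower, and of 466 in KG1a cells 250 were called higher and 5 lower. MIR7977 lay above all but 28 of them in HL60 cells and all but 11 in KG1a cells.

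In vesicles the fitted value of MIR7977 was above most other miRNA entries as well. In HL60 sEV 3 of 111 other miRNA entries had a larger value, in HL60 lEV 14 of 66, in KG1a sEV 5 of 167 and in KG1a lEV none of 167. The miRNA medians there were −7.92, −4.01, −5.11 and −3.89, in the same order of sources. The median of tRNA entries was below 0 in both HL60 vesicle sources (−0.75 in sEV and −1.32 in lEV) and above 0 in both KG1a vesicle sources (0.65 in sEV and 1.47 in lEV). MIR7977 itself did not pass the test in any of these sources, so its place among the classes is given for the fitted values only. That place rests on single libraries in HL60 vesicles. Without rPAL replicate 3 the HL60 sEV value was −6.56, and without rPAL replicate 1 the HL60 lEV value was −5.88.

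Ranks and shares here are of reads, which are not divided by length. Among miRNA entries ranked by mean CPM, MIR7977 was 4th in rPAL RNA and 42nd in total RNA of HL60 cells, and 3rd in rPAL RNA and 44th in total RNA of KG1a cells. In vesicles it was 5th in rPAL and 71st in total RNA of HL60 sEV, 17th in rPAL and 38th in total RNA of HL60 lEV, 7th in rPAL and 53rd in total RNA of KG1a sEV, and 9th in rPAL and 36th in total RNA of KG1a lEV. A rank on the mean follows the 1 high rPAL library in HL60 sEV and likewise in HL60 lEV. The mean of KG1a sEV rPAL includes a library with no count.

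MIR7977 took 8.37, 15.0 and 15.2% of the miRNA counts in rPAL RNA of HL60 cells, against 0.107, 0.0833 and 0.0935% in total RNA. In KG1a cells it took 9.04, 7.23, 4.07 and 51.1% in rPAL RNA, against 0.0693, 0.0873, 0.0950 and 0.0723% in total RNA. Replicate 4 of KG1a cell rPAL stood apart, and MIR7977 was there the most abundant miRNA entry of all. That library had 1.92% of its counts on miRNA entries and 0.877% on precursor miRNA entries, against 3.28 to 9.35% and 4.83 to 19.0% in the 3 other rPAL libraries of KG1a cells. Its tRNA entries held 77.0% of counts, against 38.7 to 72.9% in the others. The part of these shares in the MIR7977 level was not tested.

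**Figure D3:**
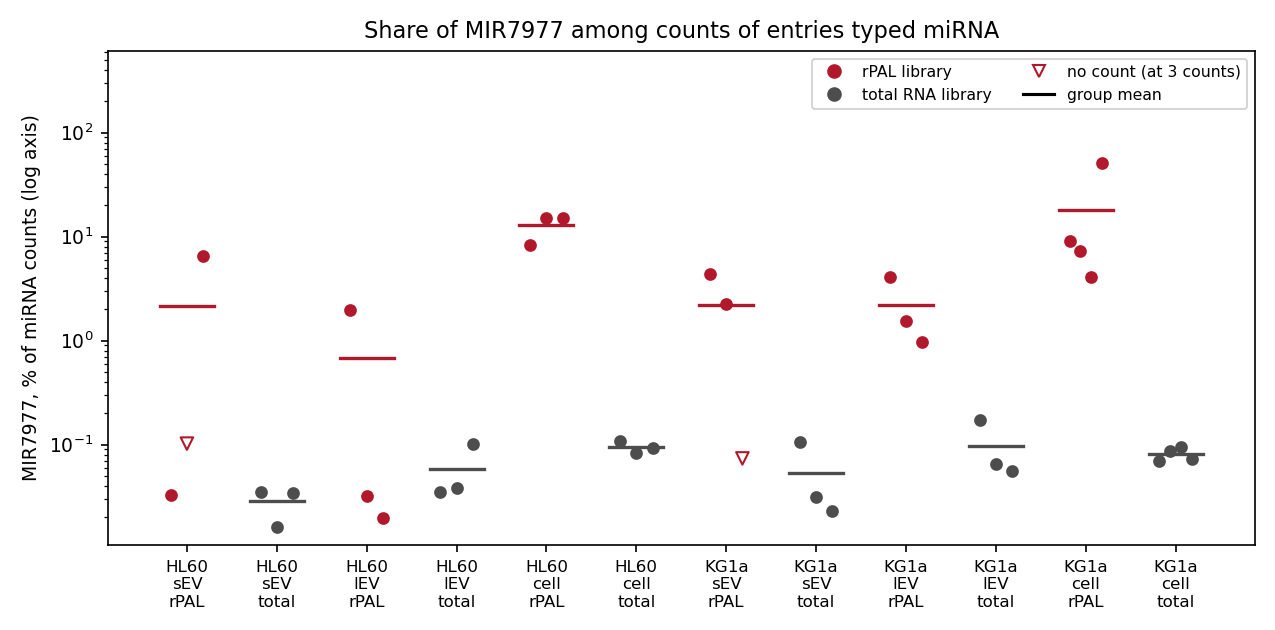
MIR7977 as a percentage of the counts of all miRNA entries, per library, on a log axis (red, rPAL; grey, total; bars, group means; open triangles, libraries with no count drawn at 3 counts). All total libraries lie below 0.2%, and the rPAL libraries of cells lie between 4.07% and 51.1%.

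In vesicles the share was 0.0327, 0 and 6.47% in rPAL RNA of HL60 sEV, against 0.0350, 0.0161 and 0.0343% in total RNA. In HL60 lEV it was 1.99, 0.0322 and 0.0196% in rPAL RNA, against 0.0351, 0.0387 and 0.102% in total RNA. In KG1a sEV it was 4.39, 2.23 and 0% in rPAL RNA, against 0.106, 0.0311 and 0.0231% in total RNA. In KG1a lEV it was 4.05, 1.53 and 0.962% in rPAL RNA, against 0.173, 0.0652 and 0.0561% in total RNA. On this scale KG1a lEV showed no overlap between its rPAL and total libraries, while the other 3 vesicle sources did overlap. On the CPM scale KG1a lEV did overlap, and 12.5% of its tested features were higher in rPAL RNA without overlap. The share is a ratio within the miRNA class, whose other entries were mostly lower in rPAL RNA, so it shows unequal change between entries and not the level of MIR7977 itself.

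The vesicle rPAL libraries differed in make-up too. Ribosomal RNA entries held 35.3 to 60.4% of counts in HL60 sEV, 41.8 to 63.3% in HL60 lEV, 58.5 to 63.9% in KG1a sEV and 15.0 to 55.4% in KG1a lEV. In HL60 sEV rPAL replicate 2, which had no MIR7977 count, PCNA alone held 40.1% of the counts. With rRNA entries left out of the totals, the mean of KG1a sEV rPAL was 299.8 CPM in place of 109 CPM. MIR7977 counts in the 12 vesicle rPAL libraries ran from 0 to 1481, and 3 of these libraries had under 3000000 counts in all, at 66, 0 and 390 MIR7977 counts. The part of library make-up and depth in the vesicle values was not tested.

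Compared with cells, vesicles held less MIR7977, and the difference was wider in rPAL RNA. In rPAL RNA the fitted log2 fold change over cells was −5.08 for sEV and −7.50 for lEV of HL60, and −6.45 for sEV and −5.81 for lEV of KG1a. In total RNA it was −2.28 for sEV and −1.49 for lEV of HL60, and −2.62 for sEV and −1.23 for lEV of KG1a. The vesicle and cell libraries did not overlap in 7 of these 8 comparisons. KG1a lEV total RNA, where the highest vesicle library (71.9 CPM) lay above the lowest cell library (62.5 CPM), is the exception. The share of tested features that were lower than in cells without overlap was 27.2% in sEV and 26.6% in lEV of HL60 rPAL RNA, and 8.46% in sEV and 9.48% in lEV of KG1a rPAL RNA. In total RNA it was 17.3% in sEV and 37.3% in lEV of HL60, and 12.4% in sEV and 25.7% in lEV of KG1a. Other miRNA entries were mostly lower in vesicles too. Their median in total RNA was −0.97 for sEV and −1.46 for lEV of HL60. In KG1a total RNA it was −2.17 for sEV and −1.58 for lEV. In lEV total RNA MIR7977 lay above 49.0% of them in HL60 and 65.6% in KG1a. In rPAL RNA the miRNA medians were −1.62 for sEV and −0.56 for lEV of HL60. In KG1a rPAL RNA they were −3.95 for sEV and −2.65 for lEV. Some MIR7977 values rest on 1 library: −14.2 for HL60 sEV rPAL without its replicate 3, −12.9 for HL60 lEV rPAL without its replicate 1, and −4.13 for KG1a sEV total without its replicate 1. These comparisons rest on the cell libraries that chose the gene and have no test. CPM is a share of a library, so fewer vesicles carrying the RNA and less of it per vesicle cannot be told apart.

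Between the 2 kinds of vesicle, no difference of MIR7977 passed the test without a replicate block. In KG1a total RNA sEV had 61.0, 11.1 and 9.15 CPM, against 71.9, 19.6 and 19.1 CPM in lEV, lower in sEV in each of the 3 pairs of the same replicate number. The log2 fold change of sEV over lEV was −1.27 ± 0.85 (SE, edgeR adjusted p = 0.390), and 5.31% of tested features passed. In this comparison the deviations of same-numbered libraries correlated, and with the replicate as a block the value was −1.52 and passed (edgeR adjusted p = 0.0164). Over all alternatives its adjusted p ran between 0.0164 and 0.873. Both replicate 1 libraries were the high ones of their groups, and without TMM scaling the value was −0.44.

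In KG1a rPAL RNA sEV had 85.6, 241 and 0 CPM, against 81.4, 147 and 23.0 CPM in lEV. The log2 fold change was −0.33 ± 1.41 (SE, edgeR adjusted p = 0.976), it was 0.38 without TMM scaling, and 0.0267% of tested features passed. Replicate numbers correlated here too, and the value with the replicate as a block was −1.63 (edgeR adjusted p = 0.789). In HL60 total RNA the value was −0.74 ± 0.80 (SE, edgeR adjusted p = 0.629), and it was 0.02 without TMM scaling, while 7.21% of tested features passed. In HL60 rPAL RNA MIR7977 did not pass the count filter and was not tested. There edgeR called 0 of the 2615 features tested, with 109 at an unadjusted p under 0.05, and DESeq2 called 65. Over the 24 vesicle libraries sEV minus lEV was −0.19 on the log2(CPM + 1) scale (exact permutation, two-sided p = 0.850, adjusted 0.981), negative in both KG1a strata and positive in both HL60 strata, and it turned in 5 of 24 cases with 1 library left out.

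Between the lines, the mean CPM of MIR7977 was lower in HL60 in every source and kind of RNA, though the libraries overlapped in vesicles. In cells the groups did not overlap. In rPAL RNA the highest HL60 library had 2805 CPM and the lowest KG1a library 2966 CPM, and in total RNA the highest HL60 library had 42.5 CPM and the lowest KG1a library 62.5 CPM. Fitted without a test, HL60 over KG1a had a log2 fold change of −1.65 in cell rPAL RNA and −1.04 in cell total RNA. Of tested features, 7.69% in cell rPAL RNA and 23.4% in cell total RNA were also lower in HL60 without overlap. Most other miRNA entries were lower in HL60 cells too, at medians of −3.45 in rPAL RNA and −1.37 in total RNA. MIR7977 lay above 67.1% of them in cell rPAL RNA and above 58.4% in cell total RNA.

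In vesicles the log2 fold change of HL60 over KG1a was −0.87 ± 0.90 in sEV total RNA (SE, edgeR adjusted p = 0.723) and −1.36 ± 0.77 in lEV total RNA (SE, edgeR adjusted p = 0.262). It was −0.99 ± 2.18 in sEV rPAL RNA (SE, edgeR adjusted p = 0.999) and −3.77 ± 1.75 in lEV rPAL RNA (SE, edgeR adjusted p = 0.402). None passed. The medians of other miRNA entries were −0.12 in sEV total, −1.30 in lEV total, −1.44 in sEV rPAL and −1.36 in lEV rPAL RNA. The MIR7977 values in sEV changed direction without 1 library, to 0.57 without KG1a sEV total replicate 1 and to 0.05 without KG1a sEV rPAL replicate 2. In total RNA 1.38% of tested features passed in sEV and 16.1% in lEV. In rPAL RNA edgeR called 0 features in either source, with 160 in sEV and 369 in lEV at an unadjusted p under 0.05, and DESeq2 called 68 and 207.

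Taken over the 4 kinds of vesicle library, HL60 minus KG1a was −2.38 on the log2(CPM + 1) scale, lower in HL60 in 4 of 4 strata. The two-sided exact permutation p was 0.0243 and 0.0730 after adjustment over the 3 vesicle comparisons, so it did not pass. By strata it was −2.22 in sEV rPAL, −4.17 in lEV rPAL, −0.99 in sEV total and −2.14 in lEV total RNA. Without the 3 vesicle libraries under 3000000 counts, a choice made after their values were seen, it was −3.76 and passed (exact permutation, adjusted p = 0.00562). It also passed with 1 library left out, for KG1a sEV rPAL replicate 3 (adjusted p = 0.0177), HL60 lEV rPAL replicate 1 (0.0482) and HL60 sEV rPAL replicate 3 (0.0178). Other alternatives raised the adjusted p, to 0.205 with the replicate block, 0.121 with a pseudocount of 0.1 and 0.120 with TMM totals. Without KG1a sEV rPAL replicate 2 it was 0.223, the highest of all alternatives.

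Differences in enrichment were interaction contrasts, the log2 fold change of rPAL over total in one source or line minus that in another. For sEV minus lEV it was 3.26 ± 2.78 in HL60 (SE, edgeR adjusted p = 0.703) and 0.61 ± 1.83 in KG1a (adjusted p = 0.992). For HL60 minus KG1a it was 0.30 ± 2.21 in sEV (adjusted p = 0.982) and −2.41 ± 1.90 in lEV (adjusted p = 0.512). No difference in enrichment passed, and the intervals are wide, at −4.10 to 4.70 for HL60 minus KG1a in sEV and −6.32 to 1.5 for the same in lEV. Single libraries turned 3 of them. Without HL60 sEV rPAL replicate 3 the sEV minus lEV value in HL60 was −4.71 and the HL60 minus KG1a value in sEV was −8.26. The HL60 minus KG1a value in sEV was also −0.53 without KG1a sEV rPAL replicate 3 and −1.39 without KG1a sEV total replicate 1. The sEV minus lEV value in KG1a was −0.24 without sEV rPAL replicate 2 and −0.47 without lEV total replicate 1. For sEV minus lEV edgeR called 0% of tested features in HL60 and 0.00891% in KG1a, and for HL60 minus KG1a 0.381% in sEV and 0% in lEV. The 0 for sEV minus lEV in HL60 stands beside 852 features at an unadjusted p under 0.05 and 250 called by DESeq2, and the 0 for HL60 minus KG1a in lEV beside 1672 and 401.

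Ordered by mean CPM, rPAL RNA of KG1a cells came first (5335) and rPAL RNA of HL60 cells second (2108), each separated from the next group without overlap. Below them followed KG1a sEV rPAL (109), KG1a lEV rPAL (83.8), KG1a cell total (81.6), HL60 sEV rPAL (54.7), HL60 cell total (37.4), KG1a lEV total (36.8), KG1a sEV total (27.1), HL60 sEV total (9.20), HL60 lEV total (9.06) and HL60 lEV rPAL (8.20). Every pair of neighbours in this lower part of the order overlapped.

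The features most like MIR7977 were sought among the 657 others with a mean of at least 50 CPM, by the SD over the 38 libraries of log2 of the ratio of their counts to those of MIR7977, with 1 added to both. A small SD means a near-constant ratio. The median SD was 4.03. The miRNA entries URS00000D0874 and URS0000239117 came first, at 1.995 and 1.996, followed by the tRNA entries URS000072890F (2.12), URS0000C8E9CB (2.14), URS00006ABBAC (2.20) and URS00007217B5 (2.21). With 5 added in place of 1, the miRNA entry URS000075A1F7 (1.72) and the mitochondrial tRNA MT-TV (1.80) came first, and 4 of these 6 features were kept. All libraries share depth and the split into rPAL and total RNA of cells with the choice of MIR7977, so this likeness is a description.

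The 2 miRNA entries followed each other closely and had a narrower contrast than MIR7977 between rPAL and total RNA of cells. URS00000D0874 averaged 3108 CPM in rPAL RNA and 494 CPM in total RNA of HL60 cells, and 3577 CPM in rPAL RNA and 922 CPM in total RNA of KG1a cells. The tRNA entry URS0000C8E9CB had a wide contrast as well, with 412 CPM in rPAL RNA and 3.96 CPM in total RNA of HL60 cells, and 395 CPM in rPAL RNA and 7.36 CPM in total RNA of KG1a cells. Over whole classes the median SD was 3.13 for the 281 tRNA entries, 4.71 for the 33 miRNA entries and 4.84 for the 84 precursor miRNA entries in this set.

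**Figure D4:**
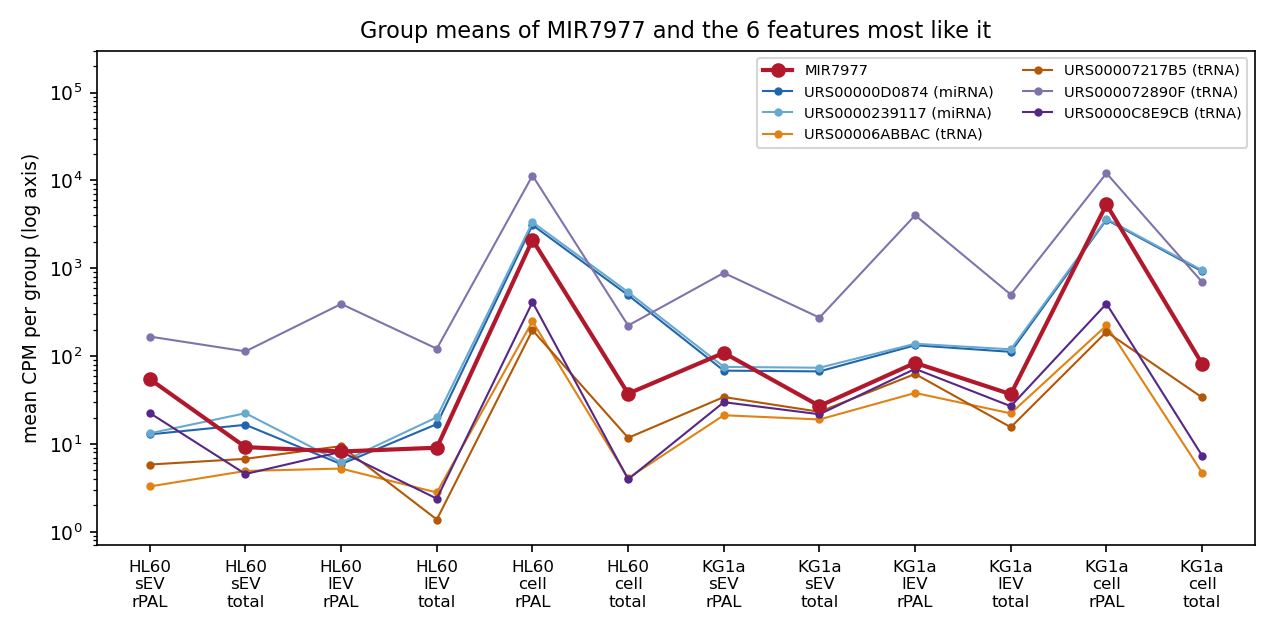
Mean CPM per group on a log axis for MIR7977 (thick red) and the 6 features with the most constant count ratio to it over the 38 libraries. Lines join the groups for reading only. All 7 features are highest in rPAL RNA of cells, and the tRNA entry URS000072890F lies above MIR7977 in every group.

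The neighbours depended on the kind of RNA. Within the 19 rPAL libraries the same 2 miRNA entries came first (2.29 each), followed by the snoRNA entry URS0000361A8E (2.29), GAS5, a long non-coding RNA that hosts snoRNAs (2.39), and the snoRNA entries URS000069573D (2.39) and URS000075EC44 (2.53), against a median of 4.18. Within the 19 total libraries the nearest were instead precursor miRNA, miRNA and other non-coding RNA entries, led by the precursor miRNA entry URS000230F515 (0.70) and followed by URS0000259C2E (0.72) and URS0000597BED (0.73), against a median of 1.70. No tRNA entry was among the 6 nearest in total RNA.

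Known myeloid and leukaemia miRNA genes gave little to set beside MIR7977 in this table. Of 17 listed symbols 16 were in the table and 5 had a count, and MIR29A, which had the most, was the only one that passed the count filter between rPAL and total RNA of cells. MIR29A, a miRNA that targets extracellular matrix and DNA methyltransferase mRNAs, had no count in rPAL RNA of HL60 cells, where 3 counts are 0.311 to 0.506 CPM, against 4.17 ± 0.811 CPM in total RNA (SD, n = 3). It had none in rPAL RNA of KG1a cells, where 3 counts are 0.193 to 0.293 CPM, against 1.595 ± 0.587 CPM in total RNA (SD, n = 4). The other 4, MIR191, MIR181A2, MIR16-1 and MIR126, had 112, 52, 26 and 24 counts over all libraries. As RNAcentral entries hold most miRNA counts, these symbols hold a part of their miRNA only.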

How the data were processed

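The authors deposited 1 table of raw counts per feature for the 38 small RNA libraries, made from an MGIEasy small RNA kit on the DNBSEQ-G400 per the labels. Alignment used Bowtie2 and the build GRCh38 (hg38) per the submitters' processing notes, and versions, counting program, multiple hits and annotation release are not given in the sources used here. All columns matched a labelled sample. The deposited counts are whole numbers and entered the tests unchanged. GENCODE release 29 gave symbols, and RefSeq GRCh38.p14 the sequences, of which miR-7977 was matched by name.

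CPM were computed per library total in Python 3.11.15 with pandas 2.3.3. edgeR 4.0.16 in R 4.3.3 was fitted on the whole table with TMM scaling, filterByExpr and robust quasi-likelihood, with Benjamini-Hochberg adjustment over all features tested, at a threshold of 0.05. Only the groups compared entered a fit, and interactions used 4 groups. Permutations over vesicle libraries were exact, with all 160000 orders within strata, in SciPy 1.17.1 and NumPy 2.4.6, on log2(CPM + 1). Hairpins were folded with RNAfold 2.7.2. The edgeR test was tried on simulated counts of even spread, for some of the comparisons, and the permutation test on simulated normal values. Neither simulation held the wide spread of MIR7977 among vesicle rPAL libraries. The DESeq2 test and the Dixon measure were not simulated. The gene and the lists were chosen with earlier results of these data known. Named features are MIR7977, its 6 most alike features, list members that passed the count filter, neighbours of the gene and, after their values were seen, URS0000079F78, PCNA, MIR1226, MIR6842, MIR3651, MIR4454, MIR191, MIR181A2, MIR16-1 and MIR126.

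Replicate numbers might pair libraries. Deviations from group means correlated above 0.1 in every pair in sEV against lEV of KG1a total RNA (0.404, 0.125 and 0.268) and of KG1a rPAL RNA (0.158, 0.126 and 0.277), and for these 2 comparisons the blocked fit is given too. HL60 over KG1a in sEV total RNA (0.0826, 0.293 and 0.339) missed that rule narrowly. So did sEV over lEV in HL60 total RNA (0.120, 0.0959 and 0.134). No label states a batch or a date. Alternatives were DESeq2 1.42.0 (its size factors and its Wald test), no TMM, no count filter, the replicate block, each library left out, and other pseudocounts and totals.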

Additional observations from a re-analysis of the deposited data

Results flagged for a closer look

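The share of MIR7977 among miRNA counts in KG1a cell rPAL RNA replicate 4 stood far from the other 3 libraries of its group, at 51.1% against 4.07 to 9.04%. Its gap to the nearest library was 0.894 of the range of the group, above Dixon's 95% value of 0.829 for 4 libraries. Chance flags about 1 in 20 such groups. Level and share were both screened, in rPAL and total RNA of KG1a cells, so at least 1 flag by chance is likelier than that. These libraries also entered the choice of the gene, so the flag is a description. The level in replicate 4, at 9798 CPM, did not stand apart by the same measure.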

How the results depend on the processing

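Of 30 comparisons of MIR7977, 13 kept their direction and their side of the threshold, or moved by less than the spread where there was no test, under every alternative run. Among them rPAL over total was 0.14 with the replicate block and 0.65 to 2.97 with 1 library left out in KG1a sEV, and 0.50 to 1.95 with 1 library left out in KG1a lEV. The others are given here, and the cause of each change was not tested. With the replicate block, rPAL over total in HL60 sEV was −3.54, sEV over lEV in KG1a total RNA was −1.52 (passing), and the HL60 minus KG1a difference in enrichment in sEV was −0.67. The block changed no other call. Without TMM scaling, sEV over lEV was 0.38 in KG1a rPAL and 0.021 in HL60 total RNA. Over vesicles, rPAL minus total was 0.55 with a pseudocount of 10, 0.37 without rRNA in the totals and 0.16 without the 3 shallow libraries, sEV minus lEV was 0.029 with a pseudocount of 10, and HL60 minus KG1a was −3.76 without the shallow libraries (passing). Without rRNA in the totals KG1a sEV rPAL averaged 299.8 CPM, and with at least 200 CPM required 3 of the 6 most alike features were kept, against 4 with a pseudocount of 5.

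With 1 library left out at a time, rPAL over total was −6.56 to 3.14 in HL60 sEV, −5.88 to −0.66 in HL60 lEV and 5.16 to 6.16 in KG1a cells. Over cells it was −14.2 to −4.73 for HL60 sEV rPAL, −12.9 to −7.29 for HL60 lEV rPAL and −4.13 to −2.12 for KG1a sEV total RNA. HL60 over KG1a was −1.51 to 0.57 in sEV total and −8.78 to 0.049 in sEV rPAL RNA. Differences in enrichment were −4.71 to 7.35 for sEV minus lEV in HL60, −0.47 to 2.05 for the same in KG1a, and −8.26 to 1.71 for HL60 minus KG1a in sEV. Over vesicles, rPAL minus total was −0.62 to 0.58, sEV minus lEV −0.79 to 0.41 and HL60 minus KG1a −2.98 to −1.99.

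Counts of called features moved as well, with 1 library left out between 1732 and 4057 for rPAL over total in HL60 cells and between 915 and 1926 in KG1a cells, and over all alternatives between 149 and 1173 in HL60 sEV, 202 and 2516 in HL60 lEV, 0 and 1117 in KG1a sEV, and 0 and 2116 in KG1a lEV. For sEV over lEV in KG1a total RNA 1107 features were called with the block and 408 without. The vesicle rPAL values rest on 0 to 1481 counts, and the part of depth in them was not tested.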
